A study of Mus musculus with 2 samples.

Results

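Long intergenic noncoding RNA (lincRNA) genes were described in the gastrocnemius, a calf muscle made mostly of fast-twitch fibres, by long-read RNA sequencing. The members were the autosomal genes that the GENCODE annotation types as lincRNA and that had 1 or more reads in each of the 2 libraries, with the imprinted genes H19, Meg3, Rian and Mirg left out. Of 5206 such genes in the annotation, 539 had a read in either library and 215 had a read in both, among 12022 annotated genes of any type read in both. The members were thus chosen by their read counts, so their abundance among other genes is given as a description, and the only tests set the libraries against each other. Both libraries came from the gastrocnemius of female B6CASTF1/J mice (a cross of C57BL/6J and CAST/EiJ) aged 25 days, for which the labels name no treatment, and started from 2 µg of total RNA. They form 1 group of 2 biological replicates, so the data hold no contrast between conditions. The labels number the animals separately but give both the same donor record. What separates them may therefore be partly technical, and any p compares these libraries alone.

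Unlike messenger RNAs, lincRNAs carry no long reading frame, and they usually have fewer exons, lower abundance and a more tissue-restricted pattern. Some act as scaffolds in the nucleus, some bind proteins or microRNAs in the cytoplasm, some host small nucleolar RNAs in their introns, and a few loci first annotated as noncoding encode small proteins. Long reads bear on such genes because a read can span the whole intron chain. In the deposited tables each read belongs to a transcript model of a class: Known models match an annotated transcript, ISM (incomplete splice match) models match a part of one, NIC models join annotated splice sites in a combination outside the annotation, NNC models use at least 1 unannotated splice site, and Genomic models lie over the gene without matching its splicing. Known, NIC and NNC models are called complete chains here. The classes were taken as deposited and do not always match these meanings. A430046D13Rik, for example, is annotated with 2 exons but has ISM models of 4 and 5 exons. The same chain can also be classed differently in the libraries: its chain of 6 exons was NIC in replicate 1 and NNC in replicate 2.

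Replicate 1 held 1069771 reads and replicate 2 held 1557594, spike-ins left out, so that a single read stands for 0.935 CPM (counts scaled by the depth of the library) in replicate 1 and for 0.642 CPM in replicate 2. A count of 0 allows up to 2.80 CPM in replicate 1 and 1.93 CPM in replicate 2. The muscle genes Acta1, Ckm, Mylpf, Tnnt3, Myh4 and Atp2a1 summed to 323309 CPM in replicate 1 and 234426 CPM in replicate 2, which fits the labelled tissue. Summed markers of other cell types were lower: 4031 and 2121 CPM for fibroblasts, 964 and 345 CPM for blood, 327 and 86.7 CPM for adipocytes, 119 and 75.1 CPM for nerve, 57.0 and 21.8 CPM for endothelium, and 36.5 and 55.2 CPM for leukocytes, replicate 1 first. The leukocyte marker Ptprc was at 0 reads in replicate 1 and 1 read in replicate 2. In whole tissue, fewer cells of a type and less RNA per cell cannot be told apart, and the part of cell composition in the results below was not tested.

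The 3 lincRNAs with the best-known sequence elements were Cyrano, Norad and the small-protein locus 1810058I24Rik, and their elements are shown because the read models decide whether they are included. Cyrano (1700020I14Rik in the files, Oip5os1 in RefSeq) is known in mouse for a site that pairs extensively with the microRNA miR-7 and triggers its decay. The mature miRNA is from RefSeq (GRCm38.p6, chr7:78888295-78888317, plus strand), with its seed, bases 2 to 8, in capitals. The stretches of the long Cyrano transcript (GENCODE M21, mm10, plus strand) have in capitals the complement of the seed and, in the second, the 13 complementary bases upstream of it, at chr2:119599946-119599971 for the first and chr2:119602136-119602161 for the second.
mmu-miR-7a-5p: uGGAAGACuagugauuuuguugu
Cyrano, first seed match: tcaggttttttttttaatGTCTTCCa
Cyrano, second seed match: aACAACAAAATCACcaatGTCTTCCa
The second stretch paired with 13 further bases of the miRNA upstream of the seed match, and the first did not. The seed complement GTCTTCC was searched on the transcript strand alone, and it occurred 2 times in the long transcript of 8300 bases and 1 time in the short one of 1381 bases. Of 2288 lincRNA and protein-coding transcripts within 20% of the long one's length, 47.5% held the seed complement, 13.9% held it at least 2 times, and Cyrano alone held the 13-base stretch as well. A match describes the letters and does not show that the miRNA binds.

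Norad (2900097C17Rik) is known for repeated elements that bind Pumilio proteins, which repress their target mRNAs. The elements (TGTANATA, in capitals, transcript strand) are shown at chr2:156392310-156392341, the first of the transcript, and at chr2:156390506-156390554, where a pair stands 1 base apart, both on the minus strand of mm10.
Norad, first element: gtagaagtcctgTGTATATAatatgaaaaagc
Norad, close pair: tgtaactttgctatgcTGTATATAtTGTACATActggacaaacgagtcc
The long Norad transcript of 4915 bases held 11 elements, between positions 651 and 3526, and the short one of 339 bases held 0. Among 8863 transcripts within 20% of the long one's length, 40.3% held 1 or more, the median was 0, and 3, Norad among them, held 11 or more.

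The locus 1810058I24Rik (synonyms Mm47 and Stmp1) is typed as lincRNA in GENCODE M21, while RefSeq for the same genome lists it as protein-coding, for a small mitochondrial protein. Its first ATG opens a frame of 47 codons before the stop, in the spliced transcript across chr6:35252768-35261233, plus strand. The 144 bases are shown with the start and stop codons in capitals.
1810058I24Rik, frame: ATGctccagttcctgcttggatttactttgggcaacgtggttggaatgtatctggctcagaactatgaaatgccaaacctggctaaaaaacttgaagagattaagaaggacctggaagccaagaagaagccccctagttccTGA

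The lincRNA genes made up a small part of the transcriptome. They took 0.182% of the reads of replicate 1 (1943 reads, exact Clopper-Pearson 95% interval 0.174 to 0.190%) and 0.236% of the reads of replicate 2 (3683 reads, 0.229 to 0.244%), a mean of 0.209 ± 0.039% (SD, n = 2). The 10694 autosomal protein-coding genes read in both libraries took 94.5% and 91.3%. Intervals here cover counting error only. The median lincRNA gene had 2 reads (1.87 CPM) in replicate 1 and 4 reads (2.57 CPM) in replicate 2, against 13 reads (12.2 CPM) and 15 reads (9.63 CPM) for the median protein-coding gene. The threshold of the rule sits at the limit of detection. There were 33 members with a single read in each library, 95 with a single read in at least 1 library and 76 with fewer than 5 reads in all, while 83 had 10 or more and 12 had 100 or more. Just outside stood Gm41030 with 0 and 11 reads, Gm26720 with 0 and 7 and Gm29811 with 5 and 0 in replicates 1 and 2. The genes read in 1 library alone were 77 in replicate 1 and 247 in replicate 2, and 226 of these had a single read.

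Reads were concentrated in few genes. The most read member held 16.9% of lincRNA reads in replicate 1 and 14.6% in replicate 2, the leading 10 held 59.4% and 51.8%, and the leading 20 held 70.4% and 67.0%. Protein-coding reads were concentrated as well: the leading gene held 16.7% and 6.18% of them, the leading 10 held 41.3% and 37.1%, and the leading 20 held 48.4% and 43.4%. The groups differ in size, at 215 and 10694 genes, so the same number of leading genes is a far smaller part of the coding group. The ranking is not corrected for length.

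**Figure D1:**
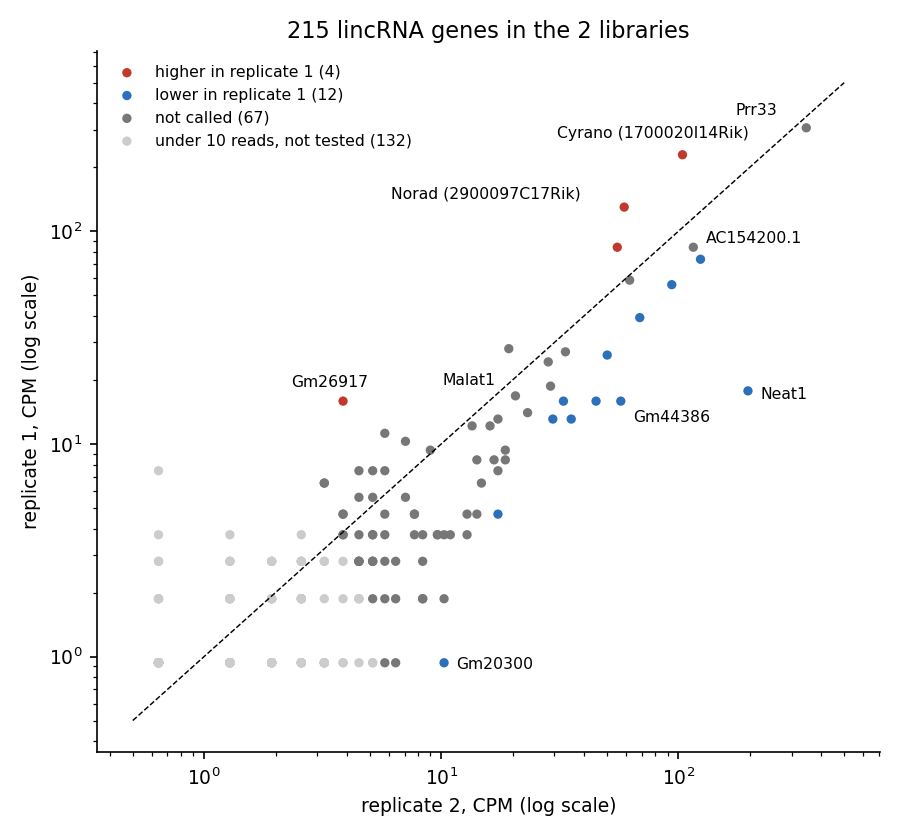
CPM of the 215 lincRNA genes in replicate 1 (vertical axis) against replicate 2 (horizontal axis), both on log scales, with the line of equal values dashed. Colours give the library comparison: 4 genes were higher and 12 lower in replicate 1, 67 were not called and 132 had under 10 reads and were not tested; Neat1 lies farthest below the line.

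A pair of genes at the head of the ranking had most of their reads inside introns. Prr33 (ENSMUSG00000043795.9, chr7:142491074-142506771, minus strand), a locus named for a proline-rich protein and listed as lncRNA in RefSeq, had 328 reads (307 CPM) in replicate 1 and 539 reads (346 CPM) in replicate 2, a mean of 326 ± 28 CPM (SD, n = 2). In replicate 1, 189 of these reads (57.6%, 52.1 to 63.0%) belonged to 1 unspliced Genomic model at chr7:142502740-142504065, and in replicate 2, 327 (60.7%, 56.4 to 64.8%) belonged to 1 at chr7:142502730-142504286. Both models lie wholly within a Prr33 intron and opposite to Tnnt3, the fast skeletal muscle troponin T gene, which had 1635 reads in replicate 1 and 4304 in replicate 2. The model of replicate 1 begins and ends exactly at borders of annotated Tnnt3 exons, that of replicate 2 at none, and they span 2 and 3 Tnnt3 exons. No source used here states how strand was assigned, so reads of Prr33 and of Tnnt3 in this stretch cannot be told apart, and likewise for other members that overlap a gene on the opposite strand.

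The spliced Prr33 reads lie in the 3′ part of the gene, away from Tnnt3. No read was Known. An ISM model of 2 exons held 60 reads of replicate 1 and 73 of replicate 2, and an NNC model with the same ends held 26 and 35, the most read unannotated chain of all members. The chains differ at the donor: the annotated intron (chr7:142493136-142496874) was used by 67 and 82 reads, and an intron that begins 14 bases earlier in the transcript (chr7:142493136-142496888) by 28 and 41. The stretch below is the spliced annotated transcript across that junction, with the 14 exon bases that the unannotated donor leaves out in capitals; they begin with GT, the usual first bases of an intron.
Prr33, alternative donor: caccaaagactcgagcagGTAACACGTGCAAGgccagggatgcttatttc
In replicate 2, a Genomic model that is 1 base long, at the annotated 3′ end of Prr33, held 82 further reads, and in replicate 1 an unspliced ISM model ending there held 42.

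**Figure D2:**
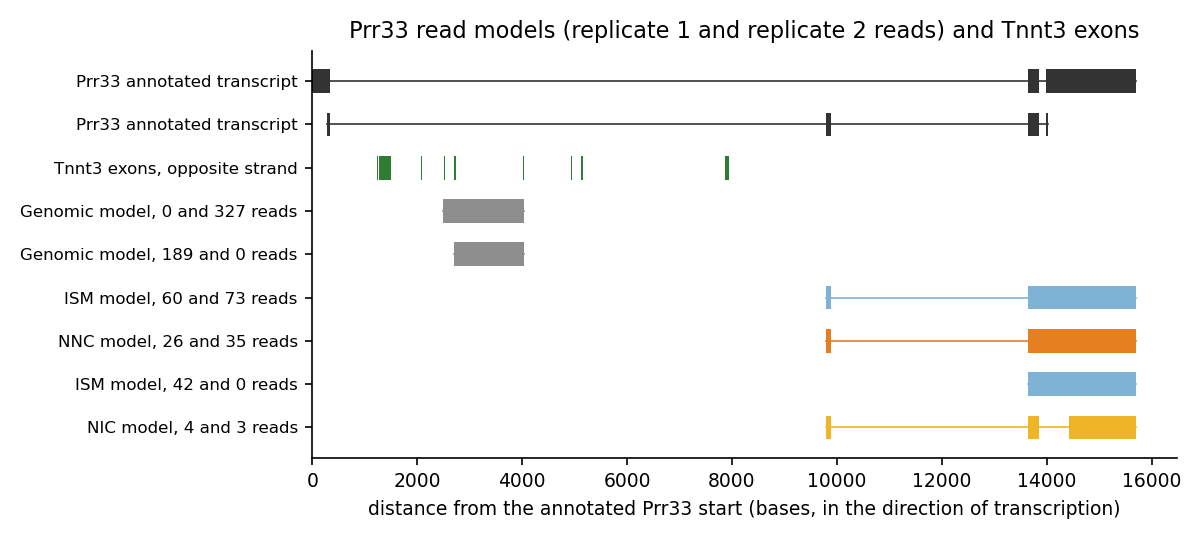
Prr33 models longer than 10 bases with the most reads, drawn as exons (boxes) and introns (lines) by distance in bases from the annotated start; labels give the reads of replicate 1 and replicate 2. The Genomic models lie among the Tnnt3 exons (green), and the ISM, NNC and NIC models lie in the 3′ part of Prr33.

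AC154200.1 (ENSMUSG00000116590.1, chr17:17340820-17374206, minus strand, annotated with 7 exons) had 90 reads (84.1 CPM) in replicate 1 and 180 reads (116 CPM) in replicate 2. Every one of them was assigned to a single unspliced model of 280 bases at chr17:17345177-17345456, with the same ends in both libraries, in an intron of the gene. It overlaps the RefSeq pseudogene Oaz1-ps, a copy of an antizyme gene, and no read followed the annotated exons of AC154200.1.

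The 2 well-known cytoplasmic lincRNAs, Cyrano and Norad, had most of their reads on annotated transcripts. Cyrano (ENSMUSG00000085438.1, chr2:119594297-119607502, plus strand) had 245 reads (229 CPM) in replicate 1 and 162 reads (104 CPM) in replicate 2. Its long transcript, which holds both seed matches shown above, had 117 reads in replicate 1 and 54 in replicate 2, while its short transcript, which ends before the extended site, had 39 and 30. The rest were mostly unspliced Genomic models within the last exon, whose ends differed between the libraries. Models that cover the extended miR-7 site made up 65.7% (59.4 to 71.6%) of Cyrano reads in replicate 1 and 45.1% (37.2 to 53.1%) in replicate 2. A model stands for the transcript to which a read was assigned; the reads themselves may be shorter.

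Norad (ENSMUSG00000102869.2, chr2:156388065-156392979, minus strand) had 139 reads (130 CPM) in replicate 1 and 92 reads (59.1 CPM) in replicate 2. The long transcript with all 11 Pumilio elements had 66 of them in replicate 1 and 58 in replicate 2, while the short one without any had 73 and 32. The short transcript is a single exon that lies inside the long one. A lincRNA gene elsewhere, Gm7292, holds a copy identical to an annotated Norad transcript over its whole length, and it had no read in either library.

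Neat1 and Malat1 are neighbouring genes of nuclear RNAs, read about equally in replicate 1 and very differently in replicate 2. Neat1 (ENSMUSG00000092274.3, chr19:5824708-5845478, minus strand), the scaffold of paraspeckles, had 19 reads (17.8 CPM) in replicate 1 and 306 reads (196 CPM) in replicate 2, the widest gap among members. Of these, 18 and 300 were assigned to the single-exon Known transcript of 20771 bases, the long form that paraspeckles are built on; assignment to that model does not show that the reads span it. Malat1, a lincRNA of nuclear speckles that is encoded beside Neat1, had 18 reads (16.8 CPM) in replicate 1 and 32 reads (20.5 CPM) in replicate 2, all Known and single-exon. Pvt1, which lies next to the gene for the transcription factor Myc, had 1 and 3 reads. The list of nuclear-retained RNAs had 12 names, of which 5 were members. It also counts Norad and Cyrano, which are mainly cytoplasmic, each under more than 1 name.

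The gene linc-Myh (2310065F04Rik, ENSMUSG00000087410.7) lies within the cluster of skeletal myosin heavy chain genes (chr11:67112461-67120080, minus strand) and has been studied in mouse together with the fast myosin genes. It had 79 reads (73.8 CPM) in replicate 1 and 193 reads (124 CPM) in replicate 2. Most were incomplete: 48 and 131 reads were ISM, while 2 and 6 were Known. Its 9 complete chains with 2 or more reads were the most of any member, and 8 of them were outside the annotation. 2310001H17Rik had 17 reads in replicate 1 and 51 in replicate 2, of which 10 and 23 were Known and 4 and 12 belonged to 1 NNC chain of 3 exons. Of the 16 names of the list of muscle lincRNAs, 4 were members (Neat1, Malat1, 2310001H17Rik and Pvt1), and 7 are not symbols of this annotation. One of those 7 is Lncmyh, another name of linc-Myh, so that 5 of the 16 names stand for members when it is counted by its synonym. The rest of those 7 were not looked up by synonym, and some may be other names of annotated genes.

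Of 19 names of host genes of small nucleolar RNAs, 4 were members: Snhg18 had 8 reads in replicate 1 and 27 in replicate 2, Snhg20 had 2 and 16, Snhg6 had 3 and 7, and Snhg12 had 1 and 3. Another 2 are lincRNA genes read in replicate 2 alone, 3 are not symbols of this annotation, and 10 carry another gene type and were outside the rule. Those 10 include hosts with more reads, such as Gas5 with 9 reads in replicate 1 and 38 in replicate 2, Snhg3 with 11 and 39 and Snhg9 with 4 and 48. Of 13 names of microRNA host genes, none was a member: 8 are lincRNA genes without a read in either library, and 1 is not a symbol of this annotation. The other 4 carry another gene type and were outside the rule. They include Mir22hg with 24 reads in replicate 1 and 55 in replicate 2, and Mir133a-1hg with 11 and 30.

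Several members are better read with their other annotation in view. In all, 137 of the 215 genes matched a RefSeq gene by identifier, symbol or synonym. RefSeq types 126 of these as lncRNA, 8 as protein-coding, and 3 as pseudogenes. The 8 protein-coding ones held 79 lincRNA reads (4.07%) in replicate 1 and 189 (5.13%) in replicate 2, and most of these were from 1810058I24Rik, with 60 reads (56.1 CPM) in replicate 1 and 146 reads (93.7 CPM) in replicate 2. Models that hold both ends of its reading frame made up 57 of the 60 reads (95.0%, 86.1 to 99.0%) and 141 of the 146 (96.6%, 92.2 to 98.9%). Gm39469 had 7 and 23 reads, and the other 6 (Gm6712, Gm9949, Gm37494, Tmem250-ps, Gm536 and Gm5165) had between 1 and 4 in each library. Of the 14 names on the list of micropeptide genes, AW112010, for which a small immune protein has been described in mouse, was the other member, with 2 and 8 reads. Among the rest, 4 are not symbols of this annotation and may be other names of genes on the list. Another 8 are typed as protein-coding and were outside the rule. Those 8 include Mtln, with 100 reads in replicate 1 and 274 in replicate 2, and Mrln, with 47 and 190.

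Gm42418, AY036118 and Gm26917 lie together on chromosome 17 and overlap ribosomal RNA repeats; RefSeq lists Gm42418 as Rn18s-rs5, an 18S rRNA pseudogene. They had 63, 90 and 17 reads in replicate 1 and 97, 86 and 6 reads in replicate 2. Every read of these 3 was Known and single-exon. Gm42418 and AY036118 overlap each other on opposite strands, so their reads may be shared.

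Gm10076 (chr14:105681828-105682211, plus strand) had 28 reads in replicate 1 and 78 in replicate 2, all Known and single-exon. Its transcript is 99.5% identical over its full length to Rpl41, the gene of a very short ribosomal protein, which had 334 reads in replicate 1 and 1184 in replicate 2. The 78 coding bases of Rpl41 (spliced, chromosome 10, minus strand) recur in Gm10076 at chr14:105681869-105681946 without 1 difference, so the following sequence stands for both.
Gm10076 and Rpl41: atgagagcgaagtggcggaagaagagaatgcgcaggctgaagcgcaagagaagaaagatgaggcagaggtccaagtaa
In all, 11 members had a copy elsewhere with at least 95% identity over at least 50% of a transcript, and for 5 of them the copy had more reads than the member. AC166110.4 (3 and 3 reads), for example, is 98.5% identical to Sod2, the mitochondrial superoxide dismutase (283 and 535 reads). Counts of these members are uncertain.

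The classes of lincRNA reads differed from those of protein-coding reads mainly in the Genomic and single-exon shares. Known models took 46.3% (44.0 to 48.5%) of lincRNA reads in replicate 1 and 44.6% (43.0 to 46.2%) in replicate 2, against 64.8% and 70.7% of protein-coding reads. Genomic models took 28.5% (26.5 to 30.6%) and 32.9% (31.4 to 34.5%) of lincRNA reads, against 2.07% and 5.31% of protein-coding reads. ISM models took 11.4% and 9.69% of lincRNA reads, against 8.62% and 12.6%, so the order between the gene types changed with the library. NIC models took 3.24% and 3.56% of lincRNA reads, against 5.29% and 8.95%.

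NNC models took 10.6% of lincRNA reads in replicate 1 and 9.26% in replicate 2. For protein-coding genes that share was 19.2% in replicate 1 and 2.52% in replicate 2, so the libraries differed far more for them than for lincRNA genes. Among spliced reads alone the Known share was 50.9% and 49.6% for lincRNA genes, against 66.6% and 76.2%. With 2 libraries, no exact permutation test over samples can fall below 0.05, and none was run. Each pooled Known, Genomic and single-exon share of lincRNA reads lay on the same side of the protein-coding share in both, and by more than the gap between the libraries. Among genes with 50 to 199 reads over both libraries, however, the order of the Genomic shares was reversed. They were 2.05% and 9.37% in 15 lincRNA genes, against 4.74% and 10.5% in protein-coding genes. Known shares there were nearly equal, at 72.0% and 67.6% against 72.1% and 68.1%. In the other ranges of summed reads, lincRNA genes had the higher Genomic and the lower Known share.

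**Figure D3:**
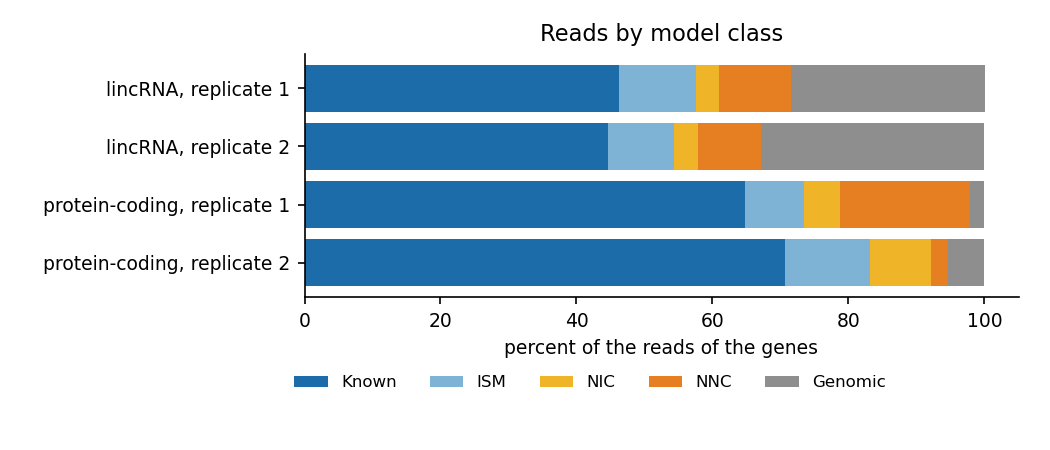
Share of reads by model class, in percent of the reads of the genes, for lincRNA genes above protein-coding genes and replicate 1 above replicate 2. Genomic models hold 28.5% and 32.9% of lincRNA reads; the NNC share of protein-coding reads differs most between the libraries, at 19.2% and 2.52%.

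Most Genomic lincRNA reads lay outside the annotated exons of their gene. Models without any overlap with such an exon held 364 reads (18.7%) in replicate 1 and 749 (20.3%) in replicate 2. The Genomic ones among them held 358 of 554 Genomic lincRNA reads (64.6%) and 732 of 1212 (60.4%). Models without such overlap are called intronic here, though a position within the bounds of the gene was not required. Prr33 and AC154200.1 carried much of this: without the pair, 28.7% and 36.1% of Genomic reads were intronic, and Genomic models took 18.0% and 20.9% of lincRNA reads. Averaged over the 28 members with 10 or more reads in each library, each counted once, the Genomic share was 12.5% and the Known share 59.0%. Smaller intronic contributions came from Gm26694, Gm5103, Gm26835, over Hivep2, and Gm26733, over Zfp266. Unspliced Genomic models rarely recurred: replicate 1 had 119 and replicate 2 had 182, and 12 had the same ends in both, with AC154200.1 the source of 90 of their 110 reads in replicate 1 and 180 of 229 in replicate 2.

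By position, 167 members overlapped no protein-coding gene, 44 overlapped one on the opposite strand and 13 one on the same strand, with some counted under both. A start within 1000 bases of the start of a coding gene on the other strand was found for 51, such as Lppos, 81 bases from the start of Lpp, and Snhg18, 148 bases from Sema5a. A start within 5000 bases after the end of a coding gene on the same strand was found for 16, such as 5430431A17Rik, 1876 bases after Josd2. Models that touch a coding exon on the opposite strand held 17.1% of lincRNA reads in replicate 1 and 16.2% in replicate 2, or 8.92% and 8.56% without Prr33.

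Exon number was low by annotation and lower still in the reads. The median member is annotated with at most 3 exons, against 9 for protein-coding genes, and 20 members (9.30%) have 1 exon and 81 (37.7%) have 2. A single annotated transcript is listed for 115 members (53.5%), against 78.7% of the 4991 other autosomal lincRNA genes. Single-exon models held 1030 lincRNA reads (53.0%, 50.8 to 55.2%) in replicate 1 and 2032 (55.2%, 53.5 to 56.8%) in replicate 2, against 3.52% and 8.09% of protein-coding reads. Part of this is annotated: single-exon Known models, such as Neat1, Norad, Malat1 and the rRNA-overlapping genes, held 22.3% in each library. In the 195 members annotated with 2 or more exons, 42.3% of reads in replicate 1 and 49.0% in replicate 2 were still single-exon, and 51 of these genes had no spliced read at all.

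The share of single-exon reads was also set side by side within ranges of reads. These match the summed reads only: at 10 to 19 reads, for example, lincRNA genes averaged 3.95 reads in replicate 1 and 9.33 in replicate 2, against 6.56 and 7.47 in protein-coding genes. Among genes with 20 to 49 reads over both libraries it was 54.4% in replicate 1 and 50.1% in replicate 2 for 19 lincRNA genes, against 11.0% and 21.1% for 2425 protein-coding genes. Among genes with 10 to 19 reads it was 45.2% and 53.6% for 42 lincRNA genes, against 13.9% and 27.5% for 1814 protein-coding genes. In protein-coding genes the share was lower in each deeper range, down to 2.36% and 6.36% at 200 or more reads, where it was 58.5% and 65.6% in 7 lincRNA genes. That last range has no upper limit and does not match the gene types in depth.

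**Figure D4:**
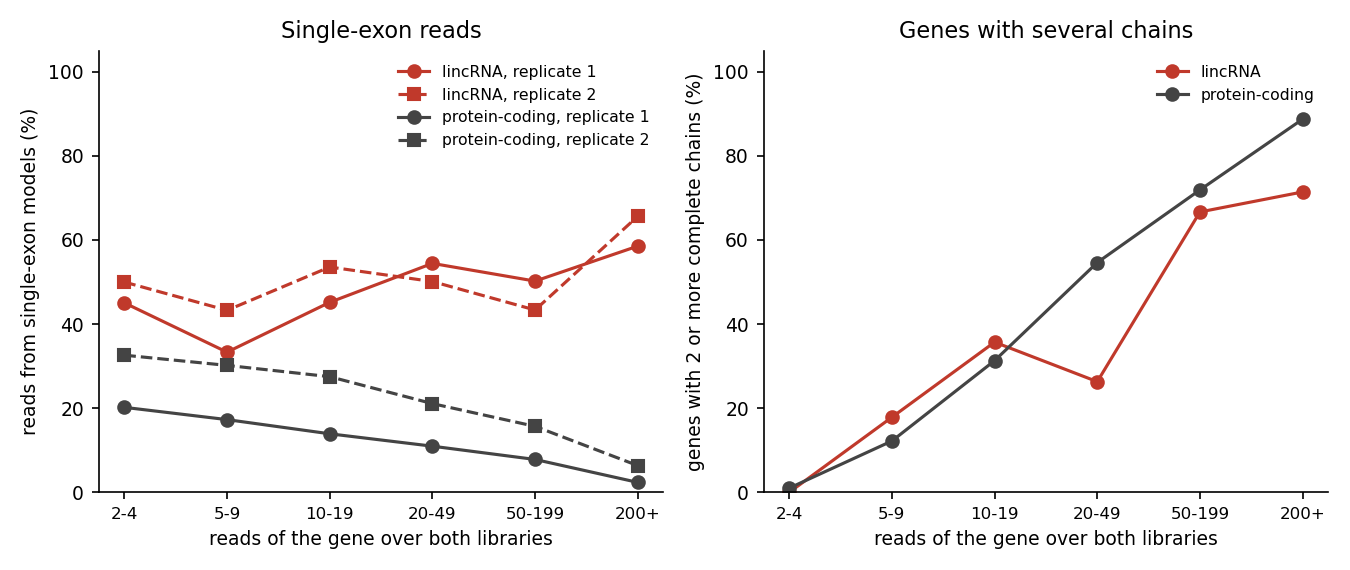
Left, percent of reads from single-exon models, and right, percent of genes with 2 or more complete chains of 2 or more reads, by the reads of the gene over both libraries; red is lincRNA and dark grey protein-coding. On the left the lincRNA lines stay above the protein-coding lines in all 6 ranges of depth; on the right the protein-coding line rises in every range, and the lincRNA line dips to 26.3% at 20 to 49 reads.

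Isoforms were few. Counting complete chains with 2 or more reads over both libraries, 45 members (20.9%) had 2 or more chains, against 5130 protein-coding genes (48.0%). The number of chains grows with reads, so genes were also counted within the same ranges of summed reads: 15 of 42 lincRNA genes with 10 to 19 reads (35.7%) had several chains, against 31.3% of protein-coding genes, and 10 of 15 with 50 to 199 reads (66.7%), against 71.9%. In between, at 20 to 49 reads, it was 5 of 19 (26.3%), against 54.6%. The order between the gene types therefore varied with the range. The members with most chains were linc-Myh with 9, A430046D13Rik with 8, 2310040G24Rik with 7, and Cyrano, Prr33 and 2900079G21Rik with 6 each.

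In the 215 genes, 144 annotated transcripts of 114 genes were read, 94 of them in both libraries, and 101 members had no Known read. By the class with most reads, 82 members were led by Genomic, 76 by Known, 38 by NNC, 11 by ISM and 8 by NIC models. All reads were Known in 31 members and all Genomic in 54. Outside the annotation stood 326 complete chains, of which 224 rested on a single read and 66 were seen in both libraries, in 42 genes.

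**Figure D5:**
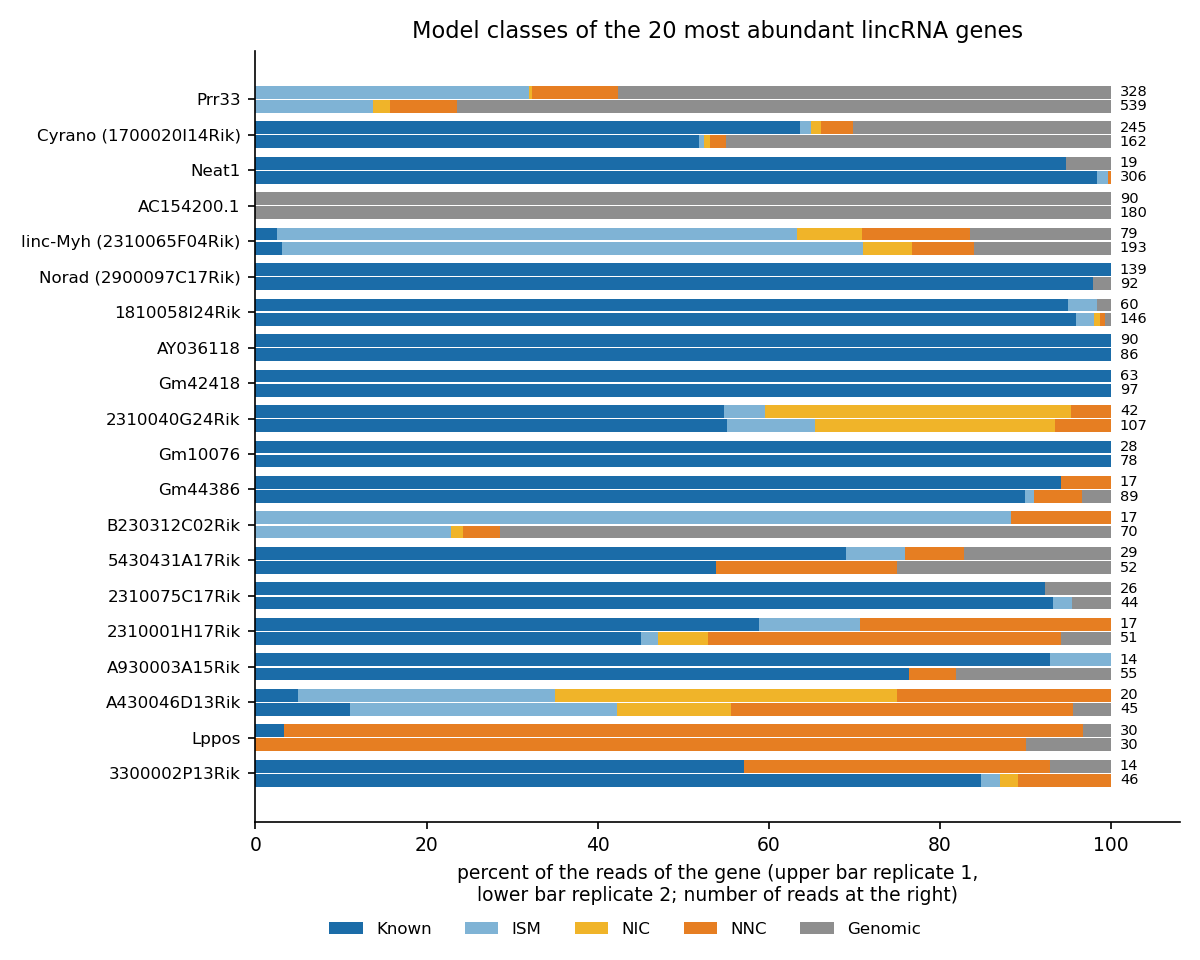
Share of reads by model class, in percent, for the 20 lincRNA genes with the highest mean CPM, with replicate 1 as the upper and replicate 2 as the lower bar and the number of reads at the right. AC154200.1 is all Genomic, Norad, AY036118, Gm42418 and Gm10076 are nearly all Known, and Lppos is nearly all NNC.

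Lppos (chr16:24391612-24393588, minus strand) overlaps the cytoskeletal gene Lpp on the opposite strand, so the limit on strand given for Prr33 holds here too. It had 30 reads in each library, and 1 read in replicate 1 and 0 in replicate 2 used its annotated intron of 374 bases. An intron of 246 bases with the same acceptor was used by 19 reads in replicate 1 and 18 in replicate 2, and one of 251 bases by 8 and 9. Both unannotated donors thus recurred in nearly the same proportion.

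2310040G24Rik (chr6:86483376-86488227, minus strand) had 42 reads in replicate 1 and 107 in replicate 2, and showed all 4 combinations of a pair of donors and a pair of acceptors. The annotation joins the downstream donor to the upstream acceptor (16 and 46 reads) and the upstream donor to the downstream acceptor (7 and 13 reads). The 2 combinations outside it were read as well, the downstream donor with the downstream acceptor by 9 and 15 reads and the upstream donor with the upstream acceptor by 5 and 14. The acceptors are 18 bases apart. The stretch below crosses the junction of the annotated transcript with the upstream acceptor, with the 18 bases between the acceptors in capitals; they end in AG, the usual last bases of an intron.
2310040G24Rik, acceptors: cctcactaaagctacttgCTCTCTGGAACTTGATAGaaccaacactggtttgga

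A430046D13Rik (chr10:128499364-128504242, plus strand), annotated as 1 transcript of 2 exons, was read mostly as a longer gene. Models with 3 or more exons held 19 of its 20 reads in replicate 1 and 38 of 45 in replicate 2, with up to 8 and 7 exons. Models that end past the annotated gene held 17 and 29 reads, and an unannotated chain of 6 exons that reached chr10:128514878 had 5 reads in each library. That chain touches coding exons on the opposite strand. 5430431A17Rik showed a smaller departure: its annotated chain of 3 exons had 11 and 23 reads, and an NNC chain with an acceptor farther downstream had 2 and 11.

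The 3′ ends of the annotated transcripts were searched for the signal that directs cleavage and polyadenylation. The poly(A) signal AATAAA or its common variant ATTAAA was looked for on the transcript strand in the last 50 bases of the most read Known transcript. It was present in 75 of 114 lincRNA genes (65.8%) and in 77.5% of 9698 protein-coding genes. With 5 or more Known reads it was 31 of 49 (63.3%), against 78.5%. Neat1, AY036118 and Gm42418 did not have it in that window. The last 40 bases of 3 well-read members with it, with AATAAA in capitals, are at chr6:86513891-86513930 (minus strand), chr9:112228203-112228242 (plus) and chr6:86483376-86483415 (minus).
Gm44386: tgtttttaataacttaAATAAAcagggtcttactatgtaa
2310075C17Rik: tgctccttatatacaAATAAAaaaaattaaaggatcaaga
2310040G24Rik: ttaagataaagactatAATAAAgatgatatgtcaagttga
2310075C17Rik had 26 reads in replicate 1 and 44 in replicate 2, of which 24 and 41 belonged to this transcript of 2 exons.

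The libraries were then compared with each other, which tests these 2 libraries and not a condition. Of the 215 members, 83 had the 10 reads over both libraries that the test needed. By Fisher's exact test with Benjamini-Hochberg adjustment over all genes, 16 of these 83 (19.3%) differed at an adjusted p of 0.05, against 2311 of 8892 genes tested (26.0%). The rule leaves out genes read in 1 library, where ratios are widest; among the 8860 genes tested with a read in each library, 25.7% differed. By direction, 4 members were higher in replicate 1, against 14.9% of all genes, and 12 were lower in replicate 1, against 11.1% of all genes. The median log2 ratio of replicate 1 over replicate 2 (0.5 reads added) was -0.69 for the lincRNA genes, 0.18 for all genes tested and 0.22 for protein-coding genes, and 66 of the 83 lincRNA genes had the lower CPM in replicate 1. Other scalings shift the ratios of all genes by -0.14 (edgeR's TMM) or -0.22 (DESeq2's size factors) and put the lincRNA median at -0.83 or -0.91. These scalings were tested by an exact binomial test in place of Fisher's. It called 3 members higher and 17 lower in replicate 1 (TMM, 24.2% of all genes called), or 3 higher and 18 lower (size factors, 24.01%).

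Cyrano and Norad were higher in replicate 1 by almost the same log2 ratio, 1.14 and 1.13 (Fisher's exact test, adjusted p of 1.09e-13 and 6.50e-08). Gm26917 (17 and 6 reads, log2 ratio 1.97, adjusted p = 0.0116 by the same exact test) and AY036118 (90 and 86 reads, 0.61, 0.0257) were the others. AY036118 passed on neither alternative scaling, with an adjusted p of 0.108 (TMM) and 0.214 (size factors) by the exact binomial test. Neat1 was lowest relative to replicate 2, at a log2 ratio of -3.43 (adjusted p = 4.84e-45 by the exact test).

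Gm20300 followed at -2.92 with 1 read in replicate 1 and 16 in replicate 2 (adjusted p = 0.0125), and Gm44386 at -1.81 with 17 and 89 (adjusted p = 8.23e-07, both by the exact test). Linc-Myh was at -0.74, 1810058I24Rik at -0.73, 2310040G24Rik at -0.80, Gm10076 at -0.92, 2310001H17Rik at -1.02, 3300002P13Rik at -1.14, A930003A15Rik at -1.39 and Gm26694 at -1.78, each with an adjusted p between 0.000657 and 0.0377 by the exact test. All reads of Gm26694 (5 and 27) were in intronic Genomic models. Linc-Myh had 18 and 31 reads in complete chains and 61 and 162 in other models. Gm10076 is a near copy of Rpl41, which had 334 and 1184 reads. B230312C02Rik was at -1.47 with 17 and 70 reads, but 50 of the 70 belonged to 1 unspliced Genomic model of 160 bases that had no read in replicate 1, and its other reads were 17 and 20. Among members that missed the threshold with a wide ratio, Snhg20 was at -2.18, Gm36495 at -2.27 (1 and 10 reads) and 2310020H05Rik at -2.12 (1 and 9 reads), and on the other side A330069E16Rik and Gm17281 were at 0.99 (7 and 5 reads each).

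Fisher's test takes the reads as the only error. When the spread between the libraries was taken from the libraries themselves (edgeR's exact test at a common dispersion, with a biological coefficient of variation of 0.360), 1 member, Neat1, and 21 of 8892 genes (0.236%) remained called. The other 15 did not pass, and 4 of the 83 had an unadjusted p under 0.05 in that test. Its spread was estimated with both libraries as 1 group, so it contains the differences under test. The test therefore cannot show that the other 15 do not differ. Summed markers differed between the libraries as well, higher in replicate 1 for every listed cell type other than leukocytes, and single markers such as Dcn, of fibroblasts, went the other way (205 CPM in replicate 1 and 363 in replicate 2). Their part in these ratios was not tested.

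Isoform use within genes gave no call. The share of the most read complete chain was compared in the 8 members with 20 or more complete-chain reads in each library; 0 of 8 passed by Fisher's exact test, against 24 of 3273 genes (0.733%), and 1 of the 8, Norad, had an unadjusted p under 0.05. With 10 or 40 reads required, 0 of 17 and 0 of 4 members passed, against 0.513% and 1.19% of genes. The long Norad transcript took 47.5% of complete-chain reads (66 of 139) in replicate 1 and 64.4% (58 of 90) in replicate 2, with an unadjusted p of 0.0145 and an adjusted p of 0.546 by the exact test. The long Cyrano transcript took 69.6% and 61.4%, the longer 1810058I24Rik transcript 91.2% and 91.5%, and the leading Lppos chain 65.5% and 66.7%. Counting all models in place of complete chains, Cyrano and Prr33 passed, as 2 of 11 members against 13.7% of 4018 genes, and the unspliced models of both genes had different ends in the libraries.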

How the data were processed

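Per the files deposited with each table, the authors counted reads per transcript model on mm10 with GENCODE M21, giving raw counts without normalization, and the gene models carry TALON identifiers; exon number and model length come from the same deposited tables. Aligner, platform, filters and strand handling: not given in the sources used here. Counts were summed per gene and divided by the reads of the library without spike-ins (CPM). Replicates were taken from the labels and not pooled. Shares have exact Clopper-Pearson 95% intervals. With 1 group, the libraries were compared with each other: Fisher's exact test, two-sided, on genes with 10 or more reads over both, and on the most read complete chain of genes with 20 or more complete-chain reads in each library, adjusted by Benjamini-Hochberg over all genes tested (SciPy 1.17.1, statsmodels 0.14.6). These tests were tested on simulated data. Alternatives used other read minimums, edgeR 4.0.16 and DESeq2 1.42.0 (R 4.3.3). Under the TMM and size-factor scalings, an exact binomial test set the reads of replicate 1 against the summed reads of the gene. Near-identical copies were sought with megablast (BLAST 2.17.0), at 95% identity over 50% of a transcript. Sequences are from GENCODE M21 transcripts (GRCm38, the same genome as mm10) and, for the miRNA, RefSeq (GRCm38.p6).

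The members, gene lists and tests were chosen with earlier results of these data known. Members named were the 20 with the highest mean CPM, those on the lists (hosts of snoRNAs and miRNAs, nuclear-retained RNAs, muscle lncRNAs, rRNA-overlapping genes, micropeptide genes), the 5 with most chains, the 5 most read unannotated chains, and the extremes of the library comparison. Others were chosen after their values were seen: members with a copy elsewhere or another RefSeq type, intronic genes, and examples of position.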

Additional observations from a re-analysis of the deposited data

How the results depend on the processing

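The number of members followed the read minimum: 120 with 2, 51 with 5 and 28 with 10 reads required in each library, 84 with Known models alone, and 292 to 462 with 1 replicate left out. Their share of all reads, 0.209%, became 0.285% with the 4 imprinted genes kept, 0.149% with complete chains alone and 0.168% with models that overlap an annotated exon (an alternative chosen after seeing the data), and 0.182 to 0.236% with 1 replicate left out.

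Averaged over members with 10 or more reads in each library, the Known share was 59.0%, the Genomic share 12.5% and the NIC and NNC share 17.7%. Without the most read member, Known was 53.9%, ISM 8.09% and Genomic 24.02%. Without the 10 most read, these were 44.2%, 7.62% and 26.3%, NIC and NNC 21.9% and single-exon reads 41.7%. With models that overlap an annotated exon, Known was 56.4%, ISM 12.9%, Genomic 14.4%, NIC and NNC 16.3% and single-exon reads 43.8%. Without the rRNA-overlapping genes and those with a copy (also chosen after seeing the data), they were 36.9%, 12.4%, 35.4%, 15.4% and 46.7%. Among Known models alone, 49.2% of reads were single-exon. Leaving out 1 replicate gave 44.6 to 46.3% Known, 9.69 to 11.4% ISM, 28.5 to 32.9% Genomic, 12.8 to 13.8% NIC and NNC, and 53.0 to 55.2% single-exon. Dropping models of up to 10 bases moved none of these by more than the spread between the libraries.

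Members with several chains numbered 105 when 1 read made a chain, 20 with 5 reads, 28 with chains seen in both libraries, 18 with Known models alone, and 20 to 29 with 1 replicate left out. The 16 calls between the libraries were also 16, though not all the same genes, without a filter and with 20 reads required. The sets tested differed: without a filter it was 16 of 215 members, against 13.1% of 15521 genes. With 20 reads it was 16 of 41, against 33.5% of 6820 genes. Of the 83 members, 20 were called under TMM and 21 under DESeq2's size factors (exact binomial test), against 24.2% and 24.01% of genes. Under edgeR's exact test it was 1, against 0.236%, and no sign was reversed. Without a filter 2310001H17Rik missed the threshold (adjusted p = 0.0650, Fisher's exact test) and Gm14319 passed it; with 20 reads required Gm20300 was not tested and AC154200.1 passed (adjusted p = 0.0414, exact test). Leading-isoform calls were 0 with 10 or 40 reads required and 2 with all models. With a library left out no comparison between libraries remained. No paired analysis was possible because the 2 libraries form 1 group.

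Depth limits these counts: 95 members rest on a single read in a library, and an unannotated chain with 1 read cannot be told apart from an error of sequencing or alignment.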
